A study of Mus musculus with 6 samples.

Results

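Genes that mark primordial germ cells and pluripotent cells were followed in ovaries of fetuses at 16.5 days post-coitus (dpc). The 10 genes were chosen by name and are *Pou5f1*, *Sox2*, *Nanog*, *Dppa3*, *Dppa5a*, *Prdm1*, *Prdm14*, *Tfap2c*, *Utf1* and *Lin28a*. All 10 were found in the deposited table of 54532 genes, of which 33797 had a value above 0 in at least 1 library. Primordial germ cells are the founders of eggs and sperm. They are set apart in the early embryo by PRDM1, PRDM14 and TFAP2C, and they switch on POU5F1, SOX2 and NANOG, the transcription factors that also hold embryonic stem cells in the pluripotent state. In the fetal ovary the germ cells then enter meiosis under STRA8 and MEIOSIN, and this early programme is shut off.

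The study asked what the loss of the splicing factor SRSF1 does to oocytes during meiotic prophase I. RNA of whole ovaries of C57BL/6 mice was sequenced in 3 Ctrl and 3 cKO libraries, and all 6 were taken at 16.5 dpc. The cKO mice carried *Stra8-GFPCre* and *Srsf1* Fl/Fl, alleles in which Cre removes the floxed exons of *Srsf1*. The Ctrl mice are given as wild type, and no source used here says whether they carried the floxed allele or the transgene. *Stra8-GFPCre* acts in germ cells as they start meiosis. Somatic cells of a cKO ovary should then keep *Srsf1*, and germ cells that have not yet reached that point may do so too. Each library therefore mixed germ cells with somatic cells, and fewer cells of a type cannot be told apart from less RNA per cell. No source used here says how many ovaries or litters went into a library, so p-values measure the spread between these 6 libraries.

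Values are FPKM, the reads on a gene divided by its length and by the size of its library. Reads on genes were between 14212164 and 16784241 per library. *Srsf1* itself, whose remaining exons are still counted, was at 63.1 to 80.2 FPKM in Ctrl and at 32.4 to 37.0 FPKM in cKO, a log2 fold change of -0.99 (SE 0.13). The libraries expressed *Foxl2*, a gene of pregranulosa cells, at 47.5 to 74.6 FPKM and the germ cell gene *Ddx4* at 13.1 to 55.1 FPKM. The share of germ cell reads differed between libraries of the same group. Reads on 8 general germ cell markers (*Ddx4*, *Dazl*, *Mael*, *Rnf17*, *Tdrd1*, *Piwil2*, *Tex101* and *Taf7l*) took up 0.0304%, 0.0626% and 0.119% of a Ctrl library and 0.160%, 0.0609% and 0.180% of a cKO library. Here and below, values of single libraries are listed from replicate 1 to replicate 3, and the numbers are names without an order. Ctrl 1 held the smallest share of germ cell marker reads, and cKO 2 was close to Ctrl 2. *Srsf1* was at 37.0 FPKM in cKO 2 and at 70.1 FPKM in Ctrl 2. Which cells lost *Srsf1* RNA was not tested.

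The 10 genes were weakly expressed. Their levels in Ctrl, as mean FPKM, fell in the order *Dppa5a* (5.01), *Dppa3* (0.859), *Lin28a* (0.730), *Prdm1* (0.631), *Pou5f1* (0.553), *Utf1* (0.534), *Nanog* (0.311), *Sox2* (0.251), *Tfap2c* (0.0756) and *Prdm14* (0.00744). Neighbours in this order differed by less than the larger of their SDs over the 3 Ctrl libraries. Both ends of the order were nevertheless the same in each of these libraries, with *Dppa5a* the highest and *Prdm14* the lowest, while the genes between them changed places. No gene had more than 179 reads in a library, and 9 of the 10 had at least 1 read in all 6. The cKO 3 library was the highest for 9 of the 10 genes, all but *Nanog*. Leaving out *Prdm14*, which was at 0 in several libraries, the lowest value was in Ctrl 1 for 5 genes, in Ctrl 2 for 3 genes and in cKO 2 for *Nanog*.

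**Figure D1:**
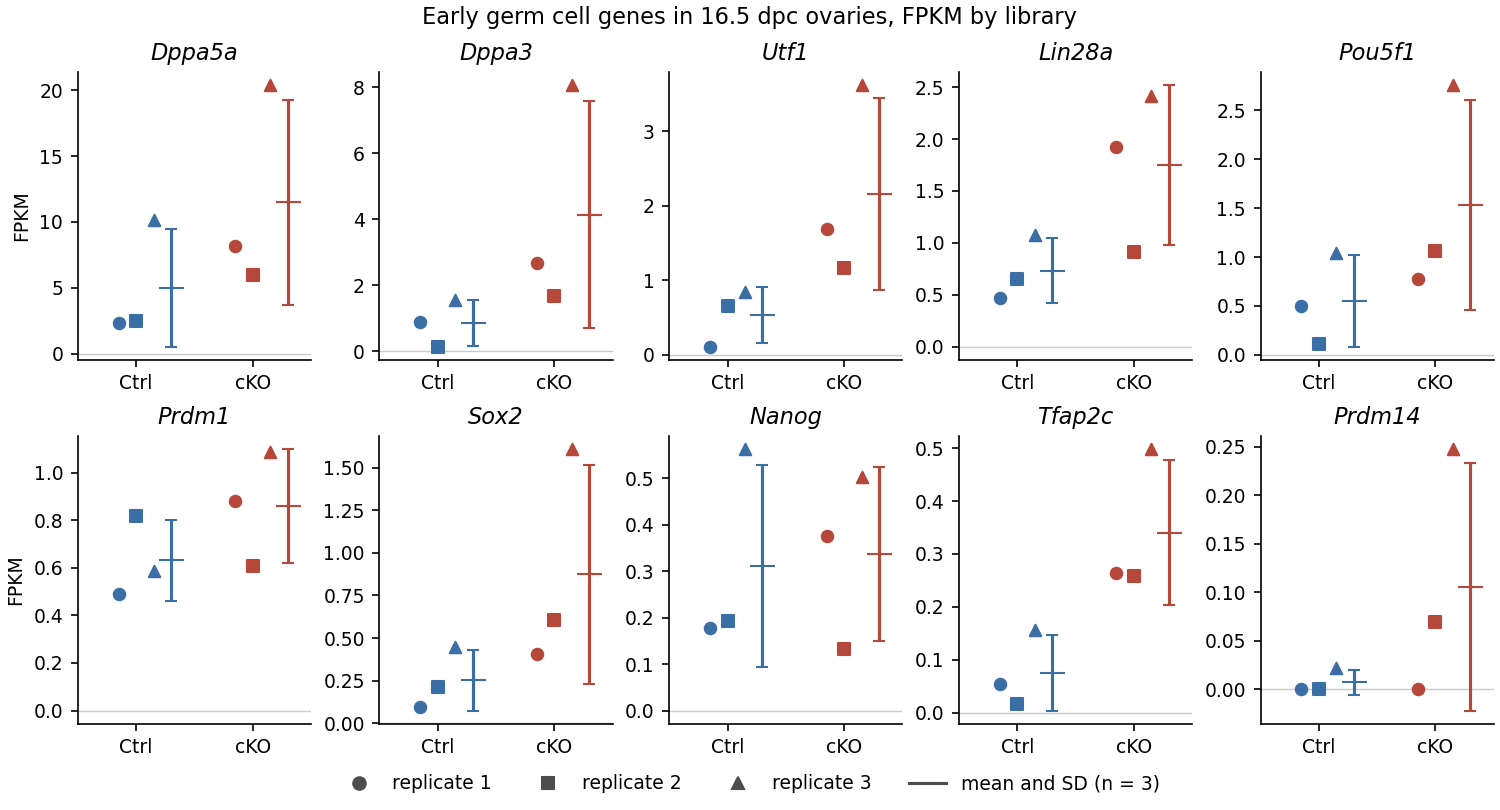
FPKM of each of the 10 genes (vertical axes, each starting near 0 with its own scale) in the 3 Ctrl libraries (blue) and the 3 cKO libraries (red). Point shapes mark the replicate, and bars give the mean and SD of the group. For *Dppa3*, *Utf1* and *Tfap2c* every cKO point lies above every Ctrl point, and for *Nanog* the highest point is Ctrl 3 at 0.562 FPKM.

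Among the core pluripotency factors, *Pou5f1* and *Sox2* had higher means in cKO, and the means of *Nanog* were close. *Pou5f1* (ENSMUSG00000024406, GRCm38 chromosome 17, 35506018 to 35510772, plus strand) encodes OCT4, the POU-domain factor that pluripotent cells cannot do without. Its level was 0.504, 0.110 and 1.04 FPKM across the Ctrl libraries and 0.777, 1.06 and 2.76 FPKM across the cKO libraries. Ctrl 3 lay between the cKO libraries, so the groups overlapped. Ctrl averaged 0.553 ± 0.469 FPKM (SD, n = 3) and cKO 1.53 ± 1.07 FPKM. On log2(FPKM + 1) this was a log2 fold change of 0.67 (SE 0.35), with an unadjusted p of 0.0956 in limma. It was 0.35 without cKO 3 and 0.45 without Ctrl 2, and without Ctrl 3 it was 0.89 and passed, with an unadjusted p of 0.0498.

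*Sox2* (ENSMUSG00000074637, chromosome 3, 34650405 to 34652461, plus strand) encodes the partner of OCT4 on DNA and has a single exon. Ctrl libraries gave 0.0972, 0.210 and 0.445 FPKM, and cKO libraries gave 0.409, 0.608 and 1.61 FPKM. Only cKO 1 fell below a Ctrl library, Ctrl 3. These values rest on 26 reads in Ctrl and 81 in cKO, which is 3.26 times as many per library size (exact 95% bounds 2.08 and 5.29, from counting error). The log2 fold change was 0.54 (SE 0.27), with an unadjusted p of 0.0835. Without cKO 1 it was 0.72 and passed, with an unadjusted p of 0.0416, and without cKO 3 the gene fell below the minimum level for the test. *Sox2* also marks glia and neural crest cells, so their markers were read as well. Of 5 such markers tested, 0 passed an unadjusted p of 0.05 in limma (the most abundant, *Ngfr*, had a log2 fold change of 0.17), their summed FPKM with *Sox10* was 35.9 to 46.2 in Ctrl and 42.7 to 45.1 in cKO, and *Sox10*, a defining gene of these cells, was between 0 and 0.153 FPKM in the 6 libraries.

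*Nanog* (ENSMUSG00000012396, chromosome 6, 122707489 to 122714633, plus strand) encodes the homeobox factor that sustains self-renewal of pluripotent cells. The Ctrl libraries stood at 0.178, 0.193 and 0.562 FPKM and the cKO libraries at 0.375, 0.133 and 0.503 FPKM. The groups overlapped, with means of 0.311 ± 0.217 (SD, n = 3) and 0.337 ± 0.188. Reads were 35 in Ctrl and 34 in cKO, a ratio of 1.02 with exact 95% bounds of 0.616 and 1.68 from counting alone. A change of *Nanog* as large as the 2.62-fold ratio of *Pou5f1* reads therefore lies outside the counting error of these reads, which leaves out the spread between libraries. *Dppa3*, which had the highest log2 fold change of the members tested, lies on the same strand and ends 77.2 kb before the start of *Nanog*.

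Promoters of the pluripotency factors hold short motifs to which such factors can bind, and they are shown here for a gene whose groups overlapped, with close means (*Nanog*) and for 3 that had higher means in cKO. RefSeq promoter sequence for GRCm38.p6 was at hand for 6 of the 10 genes, *Sox2*, *Lin28a*, *Nanog*, *Utf1*, *Prdm1* and *Pou5f1*. Windows of 250 bases before the RefSeq start site were read. RefSeq starts *Pou5f1*, *Utf1* and *Lin28a* inside the gene as the deposited table draws it, by 14, 67 and 25 bases, and those bases are not printed. The rest is given 5′ to 3′ on the strand of the gene, with capitals for the motif matches. It lies at chr6:122707239-122707488 (plus) for *Nanog*, chr17:35505782-35506017 (plus) for *Pou5f1*, chr7:139943606-139943788 (plus) for *Utf1* and chr4:134018842-134019066 (minus) for *Lin28a*.
Nanog: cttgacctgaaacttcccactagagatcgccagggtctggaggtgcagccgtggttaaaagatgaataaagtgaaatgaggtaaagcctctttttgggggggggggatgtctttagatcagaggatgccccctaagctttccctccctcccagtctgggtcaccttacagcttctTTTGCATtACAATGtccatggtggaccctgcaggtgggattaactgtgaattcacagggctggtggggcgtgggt
Pou5f1: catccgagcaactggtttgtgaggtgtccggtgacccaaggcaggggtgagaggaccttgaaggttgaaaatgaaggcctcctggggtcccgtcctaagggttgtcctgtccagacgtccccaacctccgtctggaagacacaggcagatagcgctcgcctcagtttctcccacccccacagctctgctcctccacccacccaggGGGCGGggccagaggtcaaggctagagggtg
Utf1: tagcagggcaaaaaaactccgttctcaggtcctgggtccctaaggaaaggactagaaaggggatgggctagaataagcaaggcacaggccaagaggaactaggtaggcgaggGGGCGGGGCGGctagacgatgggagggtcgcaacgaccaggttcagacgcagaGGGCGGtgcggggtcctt
Lin28a: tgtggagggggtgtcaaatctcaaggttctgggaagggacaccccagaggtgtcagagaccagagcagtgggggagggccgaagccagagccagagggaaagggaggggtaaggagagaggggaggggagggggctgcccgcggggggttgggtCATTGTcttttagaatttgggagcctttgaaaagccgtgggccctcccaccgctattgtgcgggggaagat

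Both strands were searched for the octamer ATGCAAAT of POU factors, its core ATGCAAA, the SOX core ACAATG, the GC box GGGCGG, the E-box CACGTG and the E2F core TCCCGC, and the octamer contains its core. These motifs were in part chosen after the sequences had been seen. The *Nanog* promoter held an octamer core at 75 bases before the RefSeq start, 1 base away from a SOX core at 67 bases. Of all 32851 promoters in the table, 4.12% held the octamer core and 10.7% the SOX core in this window. *Utf1* held 4 GC boxes in its whole window, 2 of them overlapping and 1, at 56 bases, inside the gene of the table, *Pou5f1* held 1, and 32.7% of all promoters held at least 1. *Lin28a* held a SOX core, and *Sox2*, not shown, held an octamer core at 99 bases before its RefSeq start and GC boxes at 223 and 111 bases. The RefSeq table has a second promoter for *Pou5f1*, with a SOX core at 158 bases and no GC box, and a second one for *Nanog* that overlaps the first and holds the same octamer and SOX cores. The window of the second *Pou5f1* promoter and that of *Prdm1*, which held none of the motifs, lie wholly inside the gene of the table. The whole octamer, found in 1.60% of all promoters, was in none of the promoters of these 6 genes, and neither were the E-box (6.02%) and the E2F core (16.9%). A match is a run of letters and does not show that a factor is bound.

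Among the genes that found the germ line, *Tfap2c* was the one whose groups did not overlap, *Prdm1* differed least and *Prdm14* was close to the limit of detection. *Prdm1* (ENSMUSG00000038151, chromosome 10, 44437177 to 44528501, minus strand) encodes BLIMP1, the repressor that starts the germ cell fate. Its level was 0.490, 0.819 and 0.585 FPKM across the Ctrl libraries and 0.881, 0.609 and 1.09 FPKM across the cKO libraries, and Ctrl 2 lay above cKO 2. The log2 fold change was 0.19 (SE 0.17), with an unadjusted p of 0.323 in limma. The values rest on 172 reads in Ctrl and 219 in cKO, and its log2 fold change came out lowest of the 7 genes tested. It was 0.10 without cKO 3 and 0.12 without Ctrl 1.

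*Prdm14* (ENSMUSG00000042414, chromosome 1, 13113457 to 13127163, minus strand) encodes a PR-domain protein that holds back differentiation in primordial germ cells. The Ctrl libraries held 0, 0 and 1 reads on it and the cKO libraries 0, 3 and 9 reads. In a library where no read was found, a level up to 3 reads, or 0.0723 to 0.0780 FPKM, would go unseen. The reads of cKO 2 and cKO 3 stood at or above that limit, and cKO 1 had none. The ratio of 12 to 1 reads was 12.6 per library size with exact 95% bounds of 1.86 and 537.

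*Tfap2c* (ENSMUSG00000028640, chromosome 2, 172549593 to 172558622, plus strand) encodes AP2γ, which acts downstream of BLIMP1. Ctrl libraries gave 0.0544, 0.0168 and 0.156 FPKM, and cKO libraries gave 0.264, 0.259 and 0.498 FPKM. All cKO libraries lay above all Ctrl libraries (two-sided exact permutation test, p = 0.1, and no smaller p is possible with 3 libraries on each side). Reads were 14 in Ctrl and 57 in cKO, a ratio of 4.27 (exact 95% bounds 2.35 and 8.29, counting error). Its mean of 0.208 FPKM was too low for the main test on log2(FPKM + 1). With no minimum level, limma gave it an unadjusted p of 0.0148 (adjusted p = 0.882).

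The other 4 genes, which early germ cells share with embryonic stem cells, included *Dppa3* and *Utf1*, whose groups did not overlap, and *Dppa5a*, the gene with the highest level. *Dppa3* (ENSMUSG00000046323, chromosome 6, 122626410 to 122630272, plus strand) encodes STELLA, which early germ cells make, which growing oocytes store again and which protects DNA methylation in the early embryo. The Ctrl libraries stood at 0.897, 0.138 and 1.54 FPKM and the cKO libraries at 2.68, 1.67 and 8.05 FPKM. Every cKO library was above every Ctrl library, although cKO 2 was close to Ctrl 3. Ctrl averaged 0.859 ± 0.702 FPKM (SD, n = 3) and cKO 4.14 ± 3.43 FPKM. On log2(FPKM + 1) the gene rose by 1.34 (SE 0.50), and limma gave it an unadjusted p of 0.0312 (0.978 after Benjamini-Hochberg adjustment). When Ctrl 1, Ctrl 2 or cKO 3 was left out it did not pass an unadjusted p of 0.05, with log2 fold changes of 1.39, 1.02 and 0.83.

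*Utf1* (ENSMUSG00000047751, chromosome 7, 139943789 to 139945112, plus strand) encodes a chromatin protein of undifferentiated cells. Its level was 0.109, 0.654 and 0.840 FPKM across the Ctrl libraries and 1.69, 1.17 and 3.62 FPKM across the cKO libraries. The groups did not overlap, and the lowest value, in Ctrl 1, rests on 2 reads. Ctrl averaged 0.534 ± 0.380 FPKM (SD, n = 3) and cKO 2.16 ± 1.29 FPKM. *Utf1* rose by 1.00 (SE 0.33) on the log2 scale, and limma gave it an unadjusted p of 0.0197 (adjusted p = 0.978). It did not pass the unadjusted limit without Ctrl 1 (log2 fold change 0.78) or without cKO 3 (0.69).

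*Lin28a* (ENSMUSG00000050966, chromosome 4, 134003330 to 134018841, minus strand) encodes the RNA-binding protein that blocks the maturation of let-7 miRNAs. Ctrl libraries gave 0.467, 0.649 and 1.07 FPKM, and cKO libraries gave 1.93, 0.910 and 2.41 FPKM. Here cKO 2 lay below Ctrl 3, so the groups overlapped. The gene rose by 0.64 (SE 0.26), and limma gave it an unadjusted p of 0.0427 (adjusted p = 0.978). It did not pass the unadjusted limit without Ctrl 1, Ctrl 2, cKO 1 or cKO 3, with log2 fold changes of 0.47 to 0.62.

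*Dppa5a* (ENSMUSG00000060461, chromosome 9, 78367052 to 78368177, minus strand) encodes a KH-domain protein of pluripotent cells and was the highest of the 10 genes in all 6 libraries. The Ctrl libraries stood at 2.37, 2.49 and 10.2 FPKM and the cKO libraries at 8.15, 5.97 and 20.4 FPKM. Ctrl 3 lay above cKO 1 and cKO 2. The log2 fold change of 1.12 (SE 0.58) was close to that of *Utf1*, but with a wider spread within both groups its unadjusted p was 0.0961. Without Ctrl 3 it was 1.69 and passed, with an unadjusted p of 0.0105. It was 0.65 without cKO 3, 0.83 without Ctrl 1 and 0.85 without Ctrl 2, and passed in none of these.

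Of the 10 genes, 7 reached the minimum level for the test, a mean of 0.5 FPKM, and *Nanog*, *Tfap2c* and *Prdm14* did not. *Sox2* reached it through its cKO values, since its Ctrl mean was below it. Of the 7, 3 were higher in cKO at an unadjusted p below 0.05, the limit of the study (*Dppa3*, *Utf1* and *Lin28a*), and 0 were lower, where 2.68% of all 17180 genes tested were higher at this limit. At an adjusted p below 0.05, limma called 0 of all genes tested, beside 761 at the unadjusted limit, and voom on recovered reads also called 0. The median log2 fold change of the 7 was 0.67, beside -0.01 over all genes tested. Counted over all 10 genes, the groups did not overlap for 3, all higher in cKO, which was so for 3.81% of the 33797 genes above 0. With a library left out, 0 of the genes tested passed for Ctrl 1 and for cKO 3, 1 passed for Ctrl 2, 5 for Ctrl 3 and 3 for cKO 1 and for cKO 2.

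The reads recovered from the FPKM values were also compared in limma voom, which adds no pseudocount of 1 FPKM. With the same minimum level, 3 of the 7 genes were higher at an unadjusted p below 0.05 (*Dppa3*, *Utf1* and *Lin28a* again), where 2.04% of all 17180 genes were, and *Sox2* (log2 fold change 1.67) and *Pou5f1* (1.64) did not pass, with unadjusted p-values of 0.0561 and 0.0738 in that limma fit. Limma on log2(FPKM + 1) gave the same 3 genes at pseudocounts of 0.1 and 0.5. With no minimum it gave 3 of 10, where 736 of all 33797 genes were higher. These were *Tfap2c*, *Utf1* and *Dppa3*, with unadjusted p-values of 0.0148, 0.0279 and 0.0415 in that limma fit. *Lin28a* did not pass there, with an unadjusted p of 0.0590 in limma. Only voom with no minimum, a fit added after the values had been seen, gave more among these. In this fit, 6 of the 10 genes were higher at an unadjusted p below 0.05, where 2.45% of all 33797 genes were. They were *Tfap2c* (log2 fold change 2.33, SE 0.74), *Dppa3* (2.32, SE 0.83), *Utf1* (2.11, SE 0.73), *Sox2* (1.67, SE 0.72), *Pou5f1* (1.64, SE 0.72) and *Lin28a* (1.17, SE 0.46). *Prdm14* was at 1.88 (SE 1.03), *Dppa5a* at 1.26 (SE 0.60), *Prdm1* at 0.40 (SE 0.36) and *Nanog* at 0.05 (SE 0.69), and these 4 did not pass. The adjusted p in voom was 0.994 for *Nanog* and 0.874 for the other 9. The median over the 10 genes was 1.66, beside -0.03 over all genes in that fit. With a library left out, 2 genes passed when this was Ctrl 1, 1 gene when it was Ctrl 2 and 7 genes when it was Ctrl 3. The number was 6 when cKO 1 was left out, 5 for cKO 2 and 2 for cKO 3.

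**Figure D2:**
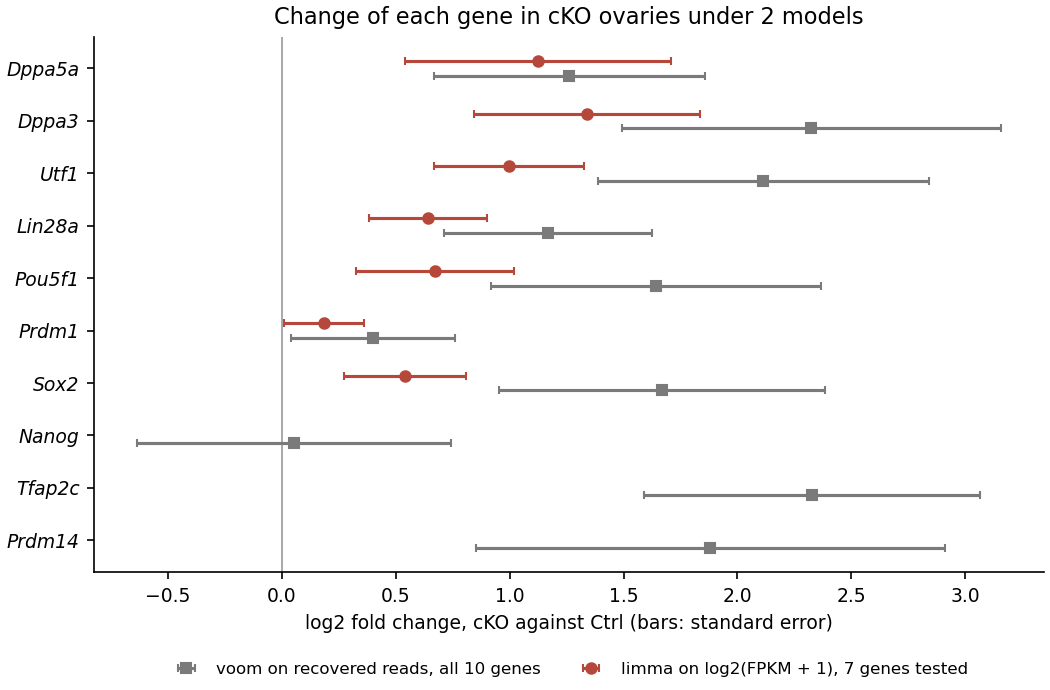
Log2 fold change of cKO against Ctrl (horizontal axis, bars give the standard error) for each gene, in limma on log2(FPKM + 1) for the 7 genes tested (red circles) and in voom on recovered reads for all 10 (grey squares). The voom values reach 2.33 for *Tfap2c*, and *Nanog* sits at 0.05 with a bar that spans 0.

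Since the 10 genes are known as genes of early germ cells, their levels were set beside the germ cell markers of the same library. Of the 8 markers, 1 (*Dazl*, log2 fold change 1.60) passed the unadjusted limit in limma, *Taf7l* (1.06) and *Tex101* (0.47), the next in abundance, did not, 7 had a log2 fold change above 0 and the median was 0.48. Their summed FPKM ran from 117 to 425 in Ctrl and from 223 to 603 in cKO. The 10 genes together drew 134, 175 and 374 reads from the Ctrl libraries and 410, 314 and 753 reads from the cKO libraries. Per 1000 reads on the 8 markers, this came to 28.3, 17.8 and 18.7 reads for the Ctrl libraries and 16.5, 30.7 and 29.5 reads for the cKO libraries. Ctrl 1 then stood with cKO 2 and cKO 3, and cKO 1 was the lowest, so the groups overlapped. *Prdm1* gave 41 of the 134 reads of Ctrl 1. Per 1000 marker reads it was at 8.66, 7.52 and 2.85 for the Ctrl libraries and at 3.05, 5.57 and 3.36 for the cKO libraries. How far *Prdm1* sets the order of the summed values was not tested. The summed values depend on *Dazl*, which itself rose. Without it, a choice made after the values had been seen, they were 39.2, 23.6 and 25.5 for the Ctrl libraries and 27.4, 47.7 and 55.1 for the cKO libraries. The groups still overlapped, but cKO 1 then lay above Ctrl 2 and Ctrl 3, and Ctrl 1 lay below cKO 2 and cKO 3.

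Pairs of libraries with nearly equal marker reads were compared after their values had been seen. cKO 2 had 1.04 times the marker reads of Ctrl 2, and 1.73 times its reads on the 10 genes per marker read (exact 95% bounds 1.43 and 2.09, counting error). Ctrl 3 was not such a match, with 19994 marker reads beside 10225 in cKO 2. Against Ctrl 3, cKO 2 was higher for 7 of the 10 genes and for 0 of the 8 markers. For cKO 1 these counts were 5 and 5, and for cKO 3 they were 9 and 4. The share of all genes that were higher in these pairs was not read. With 24900 marker reads, cKO 1 had 16.5 reads on the 10 genes per 1000 marker reads, beside 18.7 in Ctrl 3. Without *Dazl* these values were 27.4 and 25.5. Within the cKO group, however, cKO 3 had 1.03 times the marker reads of cKO 1 and 1.79 times its reads on the 10 genes per marker read (bounds 1.58 and 2.02). The ratio between those cKO libraries was thus close to the ratio between cKO 2 and Ctrl 2. Without *Dazl* the marker reads were less equal, at 0.915 times for cKO 3 against cKO 1 and 0.887 times for cKO 2 against Ctrl 2. The ratios per marker read were then 2.01 and 2.02.

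Gene by gene, the level relative to the mean of the 8 markers on the log2(FPKM + 1) scale overlapped between the groups for all 10 genes. The cKO minus Ctrl difference of this relative level was 0.76 for *Dppa3* (exact permutation test, two-sided, p = 0.3), 0.55 for *Dppa5a* (p = 0.3) and 0.42 for *Utf1* (p = 0.4), and it was -0.55 for *Nanog* (p = 0.3). At a pseudocount of 0.1, where low genes are compressed less, the relative level of *Utf1* did not overlap, with a difference of 1.35 (exact permutation test, two-sided, p = 0.1), and the other 9 genes overlapped. In reads per 1000 marker reads, *Nanog* was at 1.27, 0.711 and 1.10 for the Ctrl libraries and at 0.522, 0.489 and 0.626 for the cKO libraries. With *Dazl* among the markers, it was the gene whose cKO libraries were all below the Ctrl libraries on this scale. This rests on 5 to 22 reads per library. The scale without *Dazl* was not read for single genes, nor was the share of all genes that fall this way. With the mean marker level as a covariate in limma, *Utf1* still passed the unadjusted limit with a log2 fold change of 0.72, while *Dppa3* (1.05) and *Lin28a* (0.41) did not. How far the germ cell content of the libraries sets the differences of the 10 genes was otherwise not tested.

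**Figure D3:**
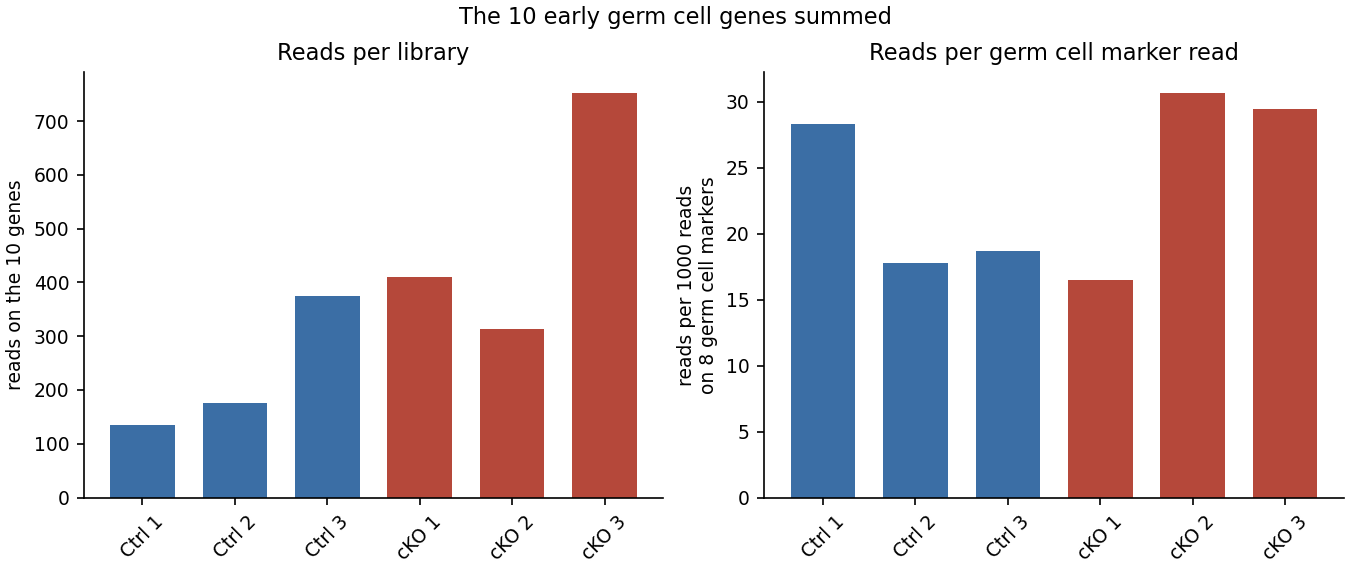
Reads on the 10 genes summed in each library (left) and the same reads per 1000 reads on the 8 germ cell markers (right), with Ctrl in blue and cKO in red. The left bars run from 134 to 753 reads, and on the right Ctrl 1 (28.3) stands beside cKO 2 (30.7) and cKO 3 (29.5), which is so with *Dazl* among the markers.

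Other genes of early germ cells moved in both directions. Of a list of 15, 12 were tested, 3 were higher and 1 was lower in cKO at the unadjusted limit, and the median log2 fold change was 0.13. *Rhox9*, an X-linked homeobox gene of fetal germ cells, had 0.768 ± 0.486 FPKM (SD, n = 3) in Ctrl and 2.76 ± 0.969 FPKM in cKO with no overlap, and it rose by 1.09 (SE 0.27). Its neighbour *Rhox6* rose by 1.04 (SE 0.39), with 1.91, 1.83 and 4.08 FPKM for the Ctrl libraries and 6.21, 3.36 and 10.7 FPKM for the cKO libraries, of which cKO 2 lay below Ctrl 3. *Ifitm3*, a membrane protein of early germ cells that somatic cells also make, rose by 0.54 (SE 0.22), with 23.9 to 44.2 FPKM in Ctrl and 46.7 to 50.2 in cKO. The *Rhox* and *Ifitm* genes belong to families of similar copies, among which the counting could split reads. *Kit*, the receptor through which germ cells survive, fell by 0.43 (SE 0.14), with 7.39 to 7.55 FPKM in Ctrl and 4.45 to 6.41 FPKM in cKO and no overlap. None of the genes of this list, or of the lists that follow, passed an adjusted p of 0.05 in limma. *Ifitm1*, the most abundant of the list, did not pass, with 82.4 to 115 FPKM in Ctrl and 92.8 to 167 FPKM in cKO.

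In the wider pluripotency network no tested gene was higher in cKO at the unadjusted limit, while 2 Krüppel-like factors were lower. Of 20 further genes, 11 were tested, 0 were higher and 2 were lower at the unadjusted limit, with a median log2 fold change of -0.03. *Klf4* fell by 0.40 (SE 0.15), with 2.23 to 2.37 FPKM in Ctrl and 1.29 to 1.97 FPKM in cKO. *Klf5* fell by 0.47 (SE 0.16), with 1.51 to 1.63 FPKM in Ctrl and 0.596 to 1.09 FPKM in cKO. Epithelial and stromal cells also use both factors, and in neither gene did the groups overlap. The most abundant genes of this list, *Klf2*, *Nr0b1* and *Tbx3*, had log2 fold changes of 0.04, 0.13 and -0.03, and *Nr0b1* is also a gene of gonadal somatic cells. Relatives of the 10 genes by family were read too, and of 5 tested 0 passed. The most abundant of these was *Prdm9*, which places meiotic recombination and shares the PR domain with *Prdm1* and *Prdm14*. Its level was 6.76, 11.4 and 19.1 FPKM across the Ctrl libraries and 38.7, 12.3 and 35.8 FPKM across the cKO libraries, a log2 fold change of 1.11 (SE 0.50, unadjusted p = 0.0643). *Slc2a3* and *Pou2f1* were both at -0.04.

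Genes of meiotic entry and prophase, which follow the early programme, stood highest on average in cKO 1 and cKO 3. Single genes differed. *Rec8* was highest in Ctrl 1 at 50.7 FPKM and lowest in cKO 1 at 12.4 FPKM, and *Sycp1*, *Syce3*, *Spo11* and *Msh4* were highest in Ctrl 3. Of 17 such genes tested, 5 were higher at the unadjusted limit (*Stra8*, *Gm4969*, which is *Meiosin*, *Tex12*, *Syce1* and *Syce2*) and 0 were lower, with a median log2 fold change of 0.78. The most abundant were *Smc1b*, a meiotic cohesin, and *Sycp1* and *Sycp3*, of the synaptonemal complex. None of these passed, with log2 fold changes of 0.66 (SE 0.52), 0.27 (SE 0.73) and 0.36 (SE 0.56). The cKO mice also carried *Stra8-GFPCre*, and whether RNA of that transgene was counted on *Stra8* was not tested. The mean log2(FPKM + 1) of the 10 early genes, relative to its mean over the libraries, came to -0.46, -0.46 and 0.03 for the Ctrl libraries and 0.15, -0.03 and 0.78 for the cKO libraries. That of the meiotic genes came to -1.04, -0.37 and 0.37 for the Ctrl libraries and 0.74, -0.40 and 0.71 for the cKO libraries. In both lists cKO 3 was high and Ctrl 1 was low. The lists parted at cKO 1, which was below cKO 3 for the early genes (0.15 beside 0.78) and level with it for the meiotic genes (0.74 beside 0.71). They also parted at cKO 2, which was near the middle for the early genes and close to Ctrl 2 for the meiotic genes (-0.40 beside -0.37). Later oocyte genes showed another order, with Ctrl 3 the highest at 0.63 and the 3 cKO libraries between -0.18 and 0.08, and of 7 tested 0 passed. The most abundant of these, *Ybx2*, *Sohlh2* and *Figla*, had log2 fold changes of -0.10, 0.52 and -0.01.

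**Figure D4:**
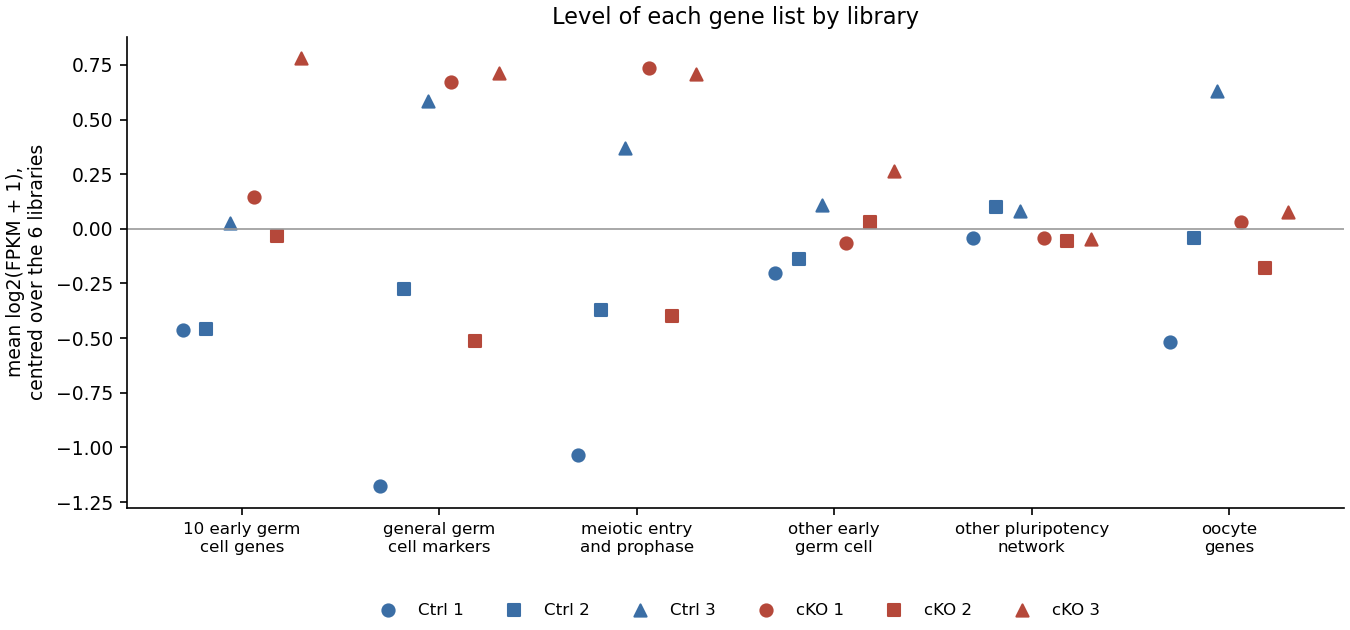
Mean log2(FPKM + 1) of each gene list (vertical axis, centred over the 6 libraries) in Ctrl (blue) and cKO (red) libraries, with shapes for the replicate. For the 10 early germ cell genes cKO 3 is the highest at 0.78, and for the oocyte genes Ctrl 3 is the highest at 0.63.

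Markers of the somatic cells of the ovary were compared for the same libraries. At the unadjusted limit in limma, 0 genes passed among 7 pregranulosa, 5 stroma, 4 endothelium and 5 immune markers tested and 1 adrenal marker tested. The most abundant were *Amhr2*, *Foxl2* and *Irx3* of pregranulosa cells (log2 fold changes -0.07, 0.06 and -0.11), *Col1a1*, *Tcf21* and *Dcn* of stroma (-0.20, 0.08 and -0.19), *Cdh5*, *Kdr* and *Pecam1* of endothelium (-0.11, 0.01 and 0.06) and *Cd68*, *Csf1r* and *Laptm5* of immune cells (-0.25, -0.29 and -0.15). *Star*, the adrenal marker tested, was at 0.09, and *Cyp11a1* and *Cyp21a1* were too low for the test. Of 3 mesonephros markers tested, *Gata3* fell by 0.58, and *Pax8* and *Cdh16* were at -0.28 and -0.33 and did not pass. Of 6 globin genes *Hbb-y* rose by 2.10, and the most abundant, *Hba-a1*, *Hbb-bs* and *Hbb-bt*, were at -0.71, -0.96 and -0.75 and did not pass. Summed FPKM of the pregranulosa markers was 375 to 453 in Ctrl and 343 to 535 in cKO. Globin genes held 1.69%, 0.608% and 0.388% of a Ctrl library and 0.129%, 0.796% and 0.746% of a cKO library. The share was highest in Ctrl 1, which had the fewest germ cell marker reads. In cKO 3, which had the most, it was above that of Ctrl 2 and Ctrl 3. The part of somatic and globin genes in the differences of the 10 genes was not tested.

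Several of the 10 genes overlap or resemble other genes, and no source used here says whether reads were counted by strand. *Gm19553*, antisense to *Pou5f1*, held 0 reads in every library, and so did the copies *Nanog-ps1* and *Nanog-ps2*. *Sox2ot*, a long RNA that runs over *Sox2* on the same strand, drew 2, 5 and 9 reads from the Ctrl libraries and 4, 0 and 13 from the cKO libraries. *Gm13061*, which overlaps *Lin28a* on the other strand, had at most 10 reads in a library, beside 28 to 137 reads on *Lin28a*. *Dppa3-ps* had at most 2 reads, and no stretch of 100 bases of *Dppa3* was shared with another gene of the annotation. Of 520 such stretches of *Dppa5a*, 16 were shared with *Dppa5b*, *Dppa5c*, *Gm15310* or *Gm6798*, so a small part of its reads could be split.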

How the data were processed

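The authors aligned paired-end reads with HISAT2 2.0.5 (mm10, which is GRCm38, per the labels) and counted them per gene with featureCounts. The FPKM values they deposited are reads over gene length and library size. No source used here names the annotation release or says whether strand was used. The labels' extraction text speaks of a tissue other than the ovary of their tissue field. Groups and replicate numbers came from sample titles. Times gene length, 100% of the values were whole reads to within 0.05 of a read.

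limma 3.58.1 (R 4.3.3), two-sided, with an intensity trend and group as the only term, was fitted to log2(FPKM + 1) of the 17180 genes reaching a mean FPKM of 0.5. The limits were an unadjusted p of 0.05, as in the study, and the same after Benjamini-Hochberg adjustment. An exact permutation test was used for single genes, and limma voom for the recovered reads. The authors ran DESeq2 on their counts, which was not repeated because the deposited unit is FPKM. Read ratios carry exact 95% bounds for counting error. The fit was tested on simulated libraries. The 10 genes and all gene lists were chosen with earlier results of these data known. Named genes are the 10, *Srsf1*, genes that overlap or copy the 10 and, per list, those past the unadjusted limit and the 3 highest. Some of these are not reported here. Alternatives were pseudocounts of 0.1 and 0.5, no minimum or 1 FPKM, other scalings, no trend, the replicate number as a block, the germ cell level as a covariate, protein-coding genes alone and each library left out. Shared replicate numbers were not treated as pairs. Promoter sequence is from RefSeq (GRCm38.p6), and coordinates are those of the deposited table, which match GENCODE M21 for the 10 genes. Python 3.11.15 was used with scipy 1.17.1, pandas 2.3.3, matplotlib 3.10.9 and numpy 2.4.6.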

Additional observations from a re-analysis of the deposited data

How the results depend on the processing

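Over 123 log2 fold changes of the 7 tested genes under the alternatives, 123 kept the positive sign. All of these fits reuse the same 6 libraries, so the count is no independent support for the direction. In limma on log2(FPKM + 1), dropping the trend, adding the replicate block, changing the minimum or keeping protein-coding genes alone cannot change a log2 fold change. With the germ cell level as a covariate, 1 of the genes passed the unadjusted limit instead of 3, and 572 genes of the whole table were lower. The replicate numbers are given by the labels without a pairing, and deviations of same-numbered libraries correlated at -0.39, -0.03 and 0.12 across genes, while Ctrl 1 correlated best with cKO 2 (0.35). The replicate block raised the number to 6 of 7, with 434 higher and 247 lower genes over the table. The same count of 6, of 10 genes, came from voom with no minimum, which called 827 higher and 848 lower genes over the table, and limma with no minimum called 736 and 595. The median log2 fold change of the tested genes was 1.40 at a pseudocount of 0.1, 1.64 in voom and 1.66 in voom with no minimum. Leaving out 1 library, between 0 and 5 of the genes passed, and between 1 and 7 in voom with no minimum, while 202 to 1461 genes of the table were higher and 163 to 1039 were lower. *Nanog* then lay between -0.31 and 0.61 in voom. At a pseudocount of 1, the differences of *Sox2* and *Tfap2c* relative to the germ cell markers were -0.04 and -0.26, and at 0.1 they were 0.81 and 0.77. Most of the 10 genes had under 100 reads per library, so counting error limits single values. The causes of these shifts were not tested.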

Other observations

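Genes outside the limits of the main comparison held a few values of note, chosen after they had been seen. *Foxd3*, a forkhead gene of pluripotent and neural crest cells, was listed at 0.172, 0.133 and 0.222 FPKM for the Ctrl libraries and at 0.0278, 0 and 0 FPKM for the cKO libraries, too low for the main test. *Sall4* and *Dppa2*, which early germ cells share with embryonic stem cells, were at 0.145 to 0.579 and 0.0252 to 0.0702 FPKM in Ctrl and at 0.187 to 1.02 and 0.0793 to 0.0974 FPKM in cKO. *Zfp42*, a marker of pluripotent cells, averaged 2.04 ± 1.36 FPKM (SD, n = 3) in Ctrl and 1.96 ± 0.942 FPKM in cKO, with a log2 fold change of 0.02 (SE 0.41).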
